A study of Sus scrofa domesticus with 11 samples.

Results

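PCK1, PCK2, FBP1, PC, PPARGC1A, FOXO1, GYS2, PYGL and TXNIP are 9 genes of hepatic glucose production, glycogen storage and glucose sensing. They were chosen by gene name from the 22029 genes of the deposited liver table, and all 9 were found, each under 1 gene identifier. The tissue was liver of Yorkshire piglets, born preterm and fed by vein (parenteral nutrition), taken at day of life 15. One group of 5 libraries came from animals given SEFA-6179 at 48 mg/kg, of which no structure is stated here. The other group of 6 libraries came from animals given MCT, the vehicle control, at an equal volume of 3 ml/kg. The letters MCT denote medium-chain triglyceride. Preterm birth and parenteral nutrition were common to both groups. The labels carry no field for sex, litter or batch. Reads of EIF1AY, a Y-linked gene, were present in 2 of the 5 SEFA-6179 libraries and in 4 of the 6 MCT libraries, and were 0 in the others. The labels number the libraries as separate samples of a group, so p-values measure the spread between these samples.

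Gluconeogenesis makes glucose from lactate, alanine and glycerol, and in the newborn it takes over when the placental glucose supply ends. Pyruvate is carboxylated by PC, and the product is turned into phosphoenolpyruvate by PCK1 in the cytosol or PCK2 in the mitochondrion. FBP1 then removes a phosphate further up the path. Glucagon raises and insulin lowers transcription of PCK1 in mammals, through regulators that include the coactivator PPARGC1A and the transcription factor FOXO1. GYS2 is the liver form of glycogen synthase and PYGL the liver form of glycogen phosphorylase, which frees glucose units from glycogen. TXNIP encodes an arrestin-like protein that lowers glucose uptake, and its transcription follows glucose through the factor ChREBP.

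In the coordinates of the deposited table, with the genome build not given in the sources used here, PCK1 lies on chromosome 17 from 57930432 to 57938896. PCK2 lies on chromosome 7 from 75187194 to 75197733, FBP1 on chromosome 10 from 27588582 to 27623077, and PC on chromosome 2 from 5518430 to 5587797. PPARGC1A lies on chromosome 8 from 17841844 to 17961909 and FOXO1 on chromosome 11 from 15317124 to 15410473. GYS2 lies on chromosome 5 from 51862945 to 51916107, PYGL on chromosome 1 from 180620314 to 180719979, and TXNIP on chromosome 4 from 99348575 to 99352241. Whether counting used strand is not stated, so reads of overlapping genes may be shared. PC overlaps LRFN4 of the opposite strand, whose mean count was 70.5, where that of PC was 17948. PYGL overlaps ABHD12B of the opposite strand and NIN of its own, whose mean counts were 64.1 and 181, where that of PYGL was 4765. The other 7 genes overlap no gene of the table.

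Total counts ran from 16821201 to 19215097 per SEFA-6179 library and from 15974977 to 23416071 per MCT library. On the first principal component, MCT replicate 5 lay far out (83.1, against -15.2 to -3.03 in the other MCT libraries). SEFA-6179 replicate 4 had the lowest summed level of 9 macrophage markers in its group, 142 CPM, where the highest of the group was 2441 CPM, and the MCT libraries ran from 269 to 1422 CPM. CPM are counts scaled to a common library size, with trimmed-mean (TMM) factors. Hepatocyte markers showed the labelled tissue in every library: the summed level of 12 such genes ran from 114074 to 223527 CPM in SEFA-6179 livers and from 90702 to 202461 CPM in MCT livers.

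PCK1 was the gene of the 9 with the clearest difference: its transcript level was higher in every SEFA-6179 library than in any MCT library. PCK2, its mitochondrial counterpart, differed little in mean between the groups. PC, which acts just before, was also higher on average with SEFA-6179, and TXNIP was lower, both with overlapping groups. By edgeR's quasi-likelihood test on counts, adjusted by Benjamini-Hochberg over 13671 genes, none of the 9 passed the threshold of 0.05, where 0.219% of all tested genes did (0.117% higher with SEFA-6179 and 0.102% lower). At an unadjusted p below 0.05 there were 3 of the 9 (PCK1, TXNIP and PC), where 10.8% of all tested genes lay below it (5.24% of all tested genes were below it and higher with SEFA-6179). DESeq2 called 1 of the 9, PCK1, where it called 1.6% of the genes it gave an adjusted p (0.719% higher with SEFA-6179). The authors' deposited table also held PCK1 alone of the 9 past an adjusted p of 0.05. Of the genes given a p-value there, 1.16% passed (0.528% higher with SEFA-6179). PCK1 was also the 1 gene of the 9 whose groups did not overlap, where 1.49% of all tested genes had such groups.

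**Figure D1:**
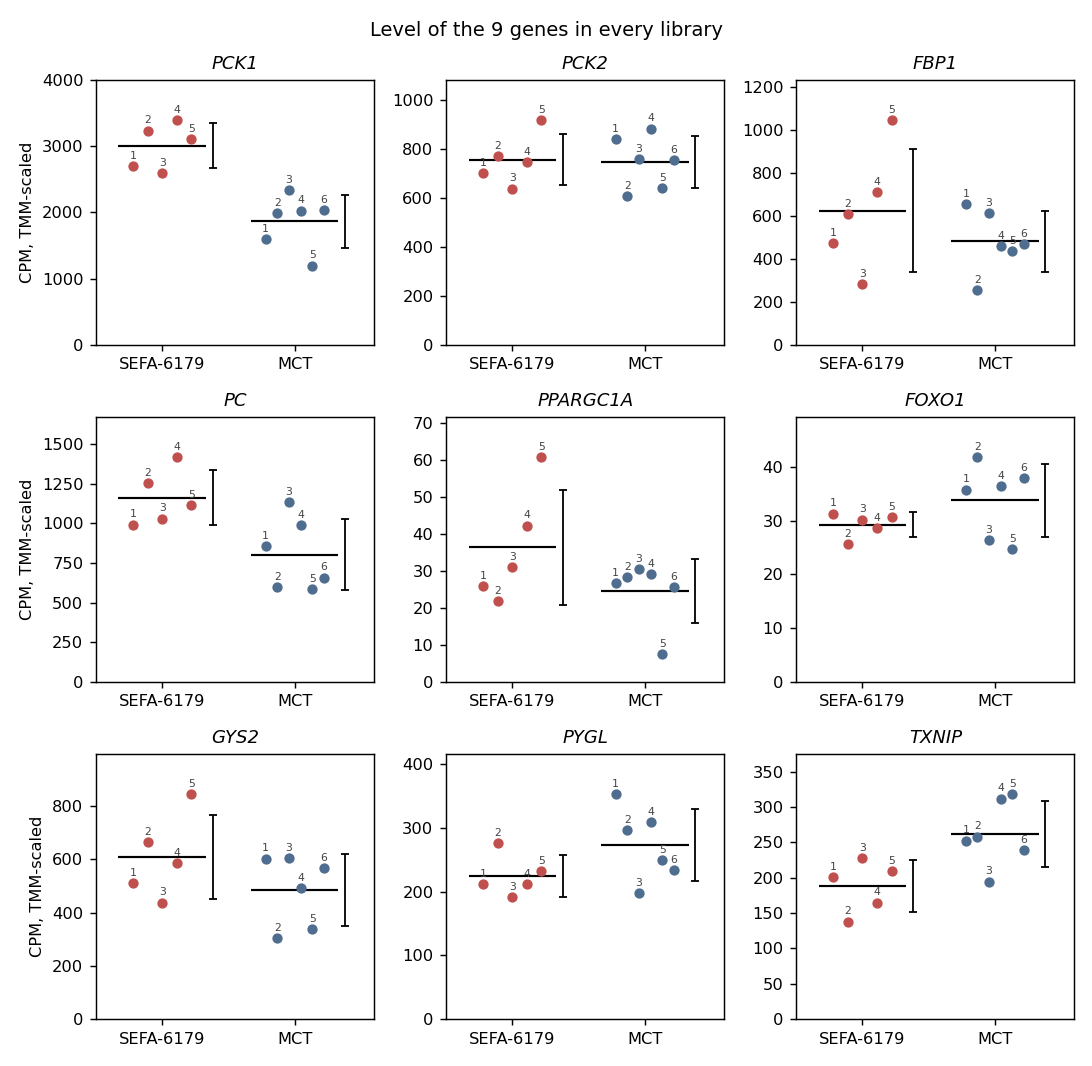
Level of each of the 9 genes (CPM, linear axis from 0) in the 5 SEFA-6179 and 6 MCT libraries, with replicate numbers. Horizontal lines are group means and bars to their right are ± 1 SD; PCK1 alone has groups that do not overlap, with 2601 to 3397 CPM against 1196 to 2340 CPM.

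PCK1 was at 2703, 3239, 2601, 3397 and 3115 CPM in SEFA-6179 replicates 1 to 5. It was at 1597, 1994, 2340, 2028, 1196 and 2033 CPM in MCT replicates 1 to 6. The groups did not overlap, and the lowest value belonged to MCT replicate 5, the library that stood apart. Over all tested genes, 0.673% had every SEFA-6179 library above every MCT library and 0.819% every one below. The 5 SEFA-6179 livers averaged 3011 ± 344 CPM (SD), against 1865 ± 404 CPM (SD) in the 6 MCT livers, which is 1.61-fold. The log2 fold change was 0.69 ± 0.19 (SE), with a 95% interval from 0.27 to 1.11. Its p was 0.00311 before and 0.188 after adjustment by edgeR, which ranked PCK1 at 226 of the genes by p. By DESeq2 the log2 fold change was also 0.69 and the adjusted p was 0.0128, so the call rested on the choice of test. The authors' deposited table gives PCK1 a log2 fold change of 0.69 and an adjusted p of 0.0118. With SEFA-6179 replicate 4 and MCT replicate 5 both left out, the log2 fold change was 0.55 (edgeR adjusted p = 0.352). With the EIF1AY level as a covariate it was 0.75 (edgeR adjusted p = 0.206).

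PCK2 was at 703, 773, 639, 747 and 919 CPM in SEFA-6179 livers, against 840, 608, 759, 884, 641 and 755 CPM in MCT livers. The 2 ranges lay almost on each other. The means were 756 ± 104 CPM (SD, n = 5) and 748 ± 108 CPM (SD, n = 6), and the log2 fold change was 0.02 with a 95% interval from -0.34 to 0.37. That interval still holds changes of up to 1.29-fold upward and 0.793-fold downward. The direction of so small a value turned with some settings, such as limma with library weights (-0.066).

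The pair of isoenzymes was also compared within each library, per length, as the ratio of deposited FPKM values (fragments scaled to gene length and depth), which no library scaling can move. The PCK1 to PCK2 ratio was 2.12, 2.31, 2.24, 2.50 and 1.87 in SEFA-6179 replicates 1 to 5. It was 1.05, 1.81, 1.70, 1.26, 1.03 and 1.48 in MCT replicates 1 to 6. Every SEFA-6179 library lay above every MCT library, and the smallest gap was between SEFA-6179 replicate 5 and MCT replicate 2. The mean ratio was 2.21 ± 0.237 (SD, n = 5) with SEFA-6179 and 1.39 ± 0.329 (SD, n = 6) with MCT. On the log2 scale the difference was 0.70 (exact permutation test, two-sided, p = 0.00649, and 0.0130 adjusted over 2 ratios; the smallest possible p was 0.00216). Since PCK1 was known to differ when the ratio was chosen, this is not evidence independent of PCK1 itself. The difference passed in each of 11 tests that left out 1 library, with adjusted p of at most 0.0286. Groups that do not overlap stay apart whichever library is left out, so these tests could hardly fail, and nothing more is read from them.

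**Figure D2:**
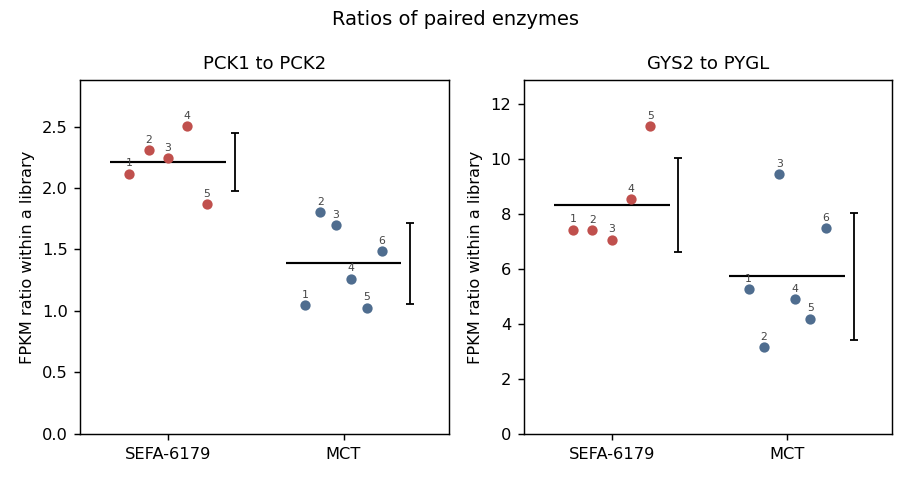
Ratio of deposited FPKM values within each library (linear axes from 0) for PCK1 over PCK2 and GYS2 over PYGL, with group means and ± 1 SD. The PCK1 to PCK2 ratio is at 1.87 or more in SEFA-6179 libraries and at 1.81 or less in MCT libraries, while the GYS2 to PYGL groups overlap.

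PC, the enzyme that carboxylates pyruvate, was at 993, 1253, 1030, 1417 and 1113 CPM in SEFA-6179 livers. With MCT it was at 855, 597, 1134, 988, 587 and 657 CPM. All 5 SEFA-6179 libraries lay above the MCT median, but MCT replicate 3 lay above 3 of them. The means were 1161 ± 174 and 803 ± 227 CPM, a 1.45-fold difference with a log2 fold change of 0.53 ± 0.21 (SE). It did not pass (edgeR adjusted p = 0.352, and 0.0229 before adjustment).

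FBP1, the bisphosphatase of the path, varied much more. It was at 472, 609, 283, 710 and 1045 CPM in SEFA-6179 replicates 1 to 5, against 654, 253, 613, 459, 434 and 469 CPM in MCT replicates 1 to 6. SEFA-6179 replicate 5 was the highest library and MCT replicate 2 the lowest, with SEFA-6179 replicate 3 next to it. The coefficient of variation was 45.6% with SEFA-6179 and 29.8% with MCT, against 11.4% and 21.7% for PCK1. The log2 fold change was 0.38 with a 95% interval from -0.27 to 1.03 (edgeR adjusted p = 0.700).

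**Figure D3:**
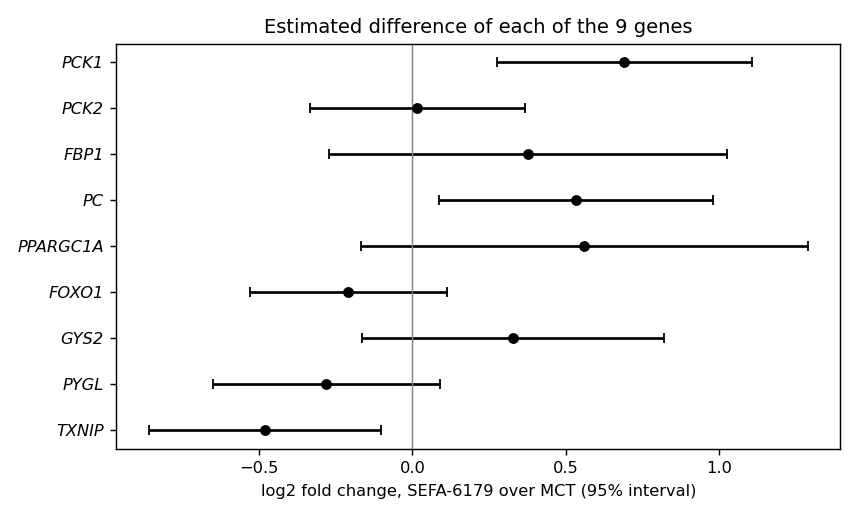
Estimated log2 fold change of each of the 9 genes, SEFA-6179 over MCT (points), with 95% intervals from edgeR (bars) and a line at no difference. The intervals of PCK1, PC and TXNIP leave out 0 before any adjustment for the number of genes tested, and the other 6 hold it.

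Of the regulators, PPARGC1A had the widest spread of the 9 genes, with a highest library 8.18 times the lowest. It was at 25.9, 21.8, 30.9, 42.2 and 60.6 CPM in SEFA-6179 livers, against 26.5, 28.3, 30.4, 29.1, 7.41 and 25.6 CPM in MCT livers. SEFA-6179 replicate 5 was highest, and MCT replicate 5 stood far below the 5 other MCT libraries, which lay close together. The log2 fold change was 0.56 ± 0.34 (SE; edgeR adjusted p = 0.579) with all libraries without passing, 0.29 once SEFA-6179 replicate 5 was left out and 0.37 once MCT replicate 5 was. FOXO1 was at 31.3, 25.6, 30.2, 28.6 and 30.6 CPM in SEFA-6179 livers, against 35.8, 41.8, 26.3, 36.4, 24.8 and 37.9 CPM in MCT livers. The SEFA-6179 libraries lay together inside the MCT range, all below the MCT median of 36.1 CPM. The log2 fold change was -0.21 with a 95% interval from -0.53 to 0.11 (edgeR adjusted p = 0.662).

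The glycogen enzymes pointed in opposite directions, and neither passed. GYS2, the synthase, was at 511, 664, 438, 587 and 845 CPM in SEFA-6179 livers and at 603, 303, 605, 491, 339 and 567.5 CPM in MCT livers, with a log2 fold change of 0.33 ± 0.23 (SE; edgeR adjusted p = 0.650). PYGL, the phosphorylase, was at 212, 276, 191, 212 and 232 CPM in SEFA-6179 livers, against 353, 296, 197, 309, 249 and 234 CPM in MCT livers, with a log2 fold change of -0.28 ± 0.17 (SE; edgeR adjusted p = 0.587). Both pairs of groups overlapped widely.

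The GYS2 to PYGL FPKM ratio was 7.44, 7.42, 7.08, 8.54 and 11.2 with SEFA-6179, against 5.27, 3.15, 9.45, 4.91, 4.20 and 7.49 with MCT. All 5 SEFA-6179 libraries lay above the MCT median, and MCT replicates 3 and 6 lay inside their range. The log2 difference was 0.61 (exact permutation test, two-sided, p = 0.0628, and 0.0628 adjusted over 2 ratios) and did not pass. It passed without MCT replicate 3 (0.77, exact permutation adjusted p = 0.0317) and without MCT replicate 6 (0.71, exact permutation adjusted p = 0.0397). These 2 control libraries had the highest ratios of their group, so leaving out either must widen the difference, and nothing more is read from it.

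TXNIP, the glucose-responsive arrestin, was at 201, 138, 228, 165 and 209 CPM in SEFA-6179 livers, against 252, 258, 194, 312, 318 and 239 CPM in MCT livers. All 5 SEFA-6179 libraries lay below the MCT median of 255 CPM, and 2 of them lay below every MCT library. The means were 188 ± 36.3 CPM (SD, n = 5) and 262 ± 46.5 CPM (SD, n = 6), a 1.39-fold lower level with SEFA-6179. The log2 fold change was -0.48 with a 95% interval from -0.86 to -0.10 (edgeR adjusted p = 0.319, and 0.0165 before adjustment).

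Per length, as mean deposited FPKM over the 11 libraries, PCK1 was the most abundant transcript of the 9, at 542 FPKM and rank 86 of all genes. It was above PCK2 (310 FPKM) in 11 of 11 libraries. PCK2, PC (270 FPKM) and FBP1 (254 FPKM) could not be put in a fixed order, since PCK2 was above PC in 7 of 11 libraries and PC above FBP1 in 7 of 11. PCK2 was the higher of PCK2 and PC in 2 of 5 SEFA-6179 libraries and in 5 of 6 MCT libraries. FBP1 was above GYS2 (156 FPKM) in all 11, and GYS2 above TXNIP (97.0 FPKM) in 9. PYGL (23.5 FPKM) was below TXNIP and above FOXO1 in all 11. The regulators were lowest, with FOXO1 at 5.32 and PPARGC1A at 2.71 FPKM, and PPARGC1A exceeded FOXO1 in 1 library. FPKM rest on the authors' gene lengths, which were longest for PPARGC1A and PYGL, at 10913 and 10563 bases.

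After each group's own mean was taken out of the log2 CPM, PCK1 was set against each of the 8 other genes over the 11 libraries. PPARGC1A gave Pearson's r = 0.75 (permutation p = 0.0393) and Spearman's rho = 0.57 (permutation p = 0.0731). TXNIP gave r = -0.64 (permutation p = 0.0376) and rho = -0.66 (permutation p = 0.0301). Adjusted over the 8 relations, the p for r was 0.157 in both cases, and that for rho was 0.292 for PPARGC1A and 0.241 for TXNIP, so neither passed. Leaving out SEFA-6179 replicate 3 and MCT replicate 5, which lay farthest from the median of PCK1, gave r = 0.30 for PPARGC1A and -0.46 for TXNIP. The r with PPARGC1A was thus much lower without those libraries. Leaving out the extremes of PCK1 narrows its range, which by itself tends to weaken r, so no more is read from it.

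The 5 genes most like PCK1 over the 11 libraries, by Pearson's r of log2 CPM among 11840 named genes, were HAO2, PAQR3, MAT1A, PCCA and NRBF2. HAO2 is a peroxisomal hydroxyacid oxidase, MAT1A makes S-adenosylmethionine in liver, and PCCA is a subunit of propionyl-CoA carboxylase. Their r ran from 0.93 for NRBF2 to 0.97 for HAO2 and their Spearman's rho from 0.86 for NRBF2 to 0.97 for HAO2. With values centred within groups r ran from 0.76 to 0.94, and without MCT replicates 5 and 1, the farthest libraries of PCK1, from 0.84 to 0.96. These are the highest of many values and are given as a description. In all 5 genes every SEFA-6179 library lay above every MCT library, where 0.673% of all tested genes did. Likeness to PCK1, whose own groups do not overlap, favours such genes, so nothing is read from that count. MAT1A was at 906 ± 170 CPM (SD, n = 5) in SEFA-6179 livers, against 478 ± 149 CPM (SD, n = 6) in MCT livers, and HAO2 at 202 ± 31.3 and 129 ± 21.4 CPM. None of the 5 passed by edgeR (adjusted p from 0.126 to 0.227). The authors' deposited table called HAO2 and MAT1A, where 1.16% of its genes with a p-value passed (0.528% higher with SEFA-6179). It also called PCK1, so likeness to PCK1 favours such calls, and nothing is read from them.

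The other genes of glucose and glycogen metabolism were taken from 5 lists. None of their members passed by edgeR, where 0.219% of all tested genes did, so little is read from that. The median log2 fold change of all tested genes was -0.0015, with 49.8% above 0, and that of the 9 genes was 0.33, with 6 of 9 above 0. Of 17 tested further enzymes and carriers of gluconeogenesis, 11 lay above 0 (median 0.07). By edgeR, 2 of the 17 were at an unadjusted p below 0.05, where 10.8% of all tested genes were. GOT1, the cytosolic aspartate aminotransferase, was at 118 ± 42.8 CPM in SEFA-6179 livers, against 62.3 ± 15.4 CPM in MCT livers (edgeR adjusted p = 0.139), and the authors' deposited table gives it an adjusted p of 0.0177. G6PC1, the phosphatase that releases free glucose, was at 1966 ± 685 and 1987 ± 724 CPM, with a log2 fold change of -0.02 and a 95% interval from -0.64 to 0.61. SLC37A4, which carries its substrate into the endoplasmic reticulum, had a log2 fold change of 0.24 ± 0.20 (SE). The remaining named genes of this list were FBP2 (0.36) and G6PC3, a low-count gene (-0.77). The row named GAPDH had a mean count of 2.45 and was not tested. Whether reads of this glycolytic gene stand under another identifier was not examined, so the row is not read as its level.

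**Figure D4:**
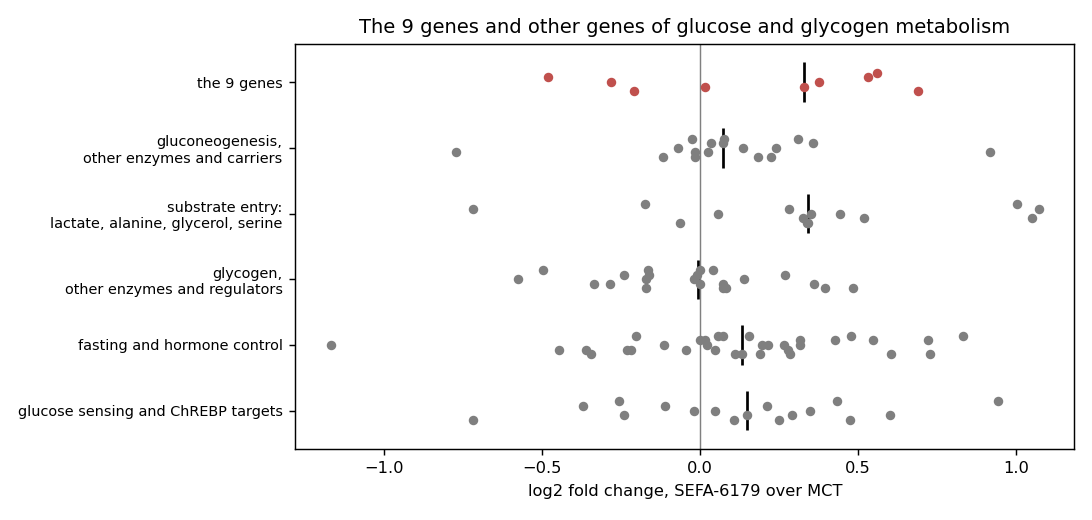
Log2 fold change, SEFA-6179 over MCT, of the 9 genes and of every tested gene of the 5 wider lists (points), with list medians as vertical bars and a line at no difference. The list of substrate entry has the highest median of the 5 lists, 0.34, and the glycogen list lies around 0.

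Of 14 tested genes of substrate entry, 11 lay above 0, with a median log2 fold change of 0.34. By edgeR, 4 of the 14 were at an unadjusted p below 0.05, all 4 higher with SEFA-6179. Of all tested genes, 10.8% were below it, and 5.24% were below it and higher with SEFA-6179. TAT, the tyrosine aminotransferase, was at 1044 ± 578 CPM in SEFA-6179 livers, against 496 ± 280 CPM in MCT livers (edgeR adjusted p = 0.435). SLC38A4, an amino acid carrier of hepatocytes, was at 462 ± 97.5 and 340 ± 53.0 CPM (adjusted p = 0.365). GPD1, which links glycerol to the path, was at 195 ± 58.7 and 136 ± 24.6 CPM (adjusted p = 0.375), and LDHB, of lactate use, at 4.38 ± 0.826 and 2.11 ± 1.04 CPM (adjusted p = 0.219).

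Of 22 tested further glycogen genes, 10 lay above 0, with a median of -0.0051. By edgeR, 1 of the 22 was at an unadjusted p below 0.05, where 10.8% of all tested genes were. PHKB, a subunit of phosphorylase kinase, was at 27.1 ± 3.31 CPM in SEFA-6179 livers, against 20.6 ± 3.75 CPM in MCT livers. Every SEFA-6179 library of PHKB lay above every MCT library, as in 0.673% of all tested genes, but it did not pass (edgeR adjusted p = 0.334). PHKB was named for its small p within the list, which favours such separation. UGP2, which makes the sugar donor for glycogen, had a log2 fold change of 0.48, and GYG2, a glycogen primer, one of -0.34. The branching enzyme GBE1 had a log2 fold change of 0.14 ± 0.22 (SE). PPP1R3B and PPP1R3C, which target a phosphatase to glycogen, were at 20.8 ± 10.2 against 31.0 ± 22.2 CPM and at 14.2 ± 6.46 against 15.8 ± 17.3 CPM.

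Of 33 tested genes of fasting and hormone control, 23 lay above 0 (median 0.13). By edgeR, 7 of the 33 were at an unadjusted p below 0.05, 5 of them higher with SEFA-6179. Of all tested genes, 10.8% were below it, and 5.24% were below it and higher with SEFA-6179. KLF15, a factor that favours amino acid use for glucose in mouse liver, ran from 75.4 to 123 CPM in SEFA-6179 livers, against 45.9 to 69.4 CPM in MCT livers. Its groups did not overlap, where 0.673% of all tested genes had every SEFA-6179 library above every MCT library. KLF15 was among the genes with the smallest p within the list, which favours such separation. Its log2 fold change was 0.72 ± 0.17 (SE; edgeR adjusted p = 0.113), and the authors' deposited table gives it an adjusted p of 0.0134. PDK2, which restrains pyruvate oxidation, was at 108 ± 37.4 and 60.6 ± 14.2 CPM (edgeR adjusted p = 0.204). Without SEFA-6179 replicate 3 it passed, at an edgeR adjusted p of 0.0309. That library had the lowest PDK2 of its group, 48.5 CPM, so leaving it out must widen the difference, and nothing more is read from it. The glucagon receptor GCGR (0.13 ± 0.26), the insulin receptor INSR (-0.23 ± 0.16), IGFBP1 (0.27 ± 0.32), which insulin lowers, and PDK4 (-0.0014 ± 0.18) had log2 fold changes within 2 SE of 0.

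Of 17 tested genes of glucose sensing, 11 lay above 0 (median 0.15). By edgeR, 2 of the 17 were at an unadjusted p below 0.05, where 10.8% of all tested genes were. MLXIPL, which encodes ChREBP, was at 107 ± 40.9 CPM in SEFA-6179 livers, against 76.9 ± 21.6 CPM in MCT livers (edgeR adjusted p = 0.510), and its partner MLX at 45.9 ± 6.06 and 37.5 ± 4.06 CPM (adjusted p = 0.411). PKLR, the liver pyruvate kinase, was at 56.3 ± 24.6 and 92.5 ± 38.4 CPM (adjusted p = 0.507), and KHK, the fructose kinase, at 73.5 ± 35.3 and 38.3 ± 20.5 CPM (adjusted p = 0.414). The glucose carrier SLC2A2 (-0.11) and GCKR (-0.02) had log2 fold changes near 0.

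ARRDC4, a relative of TXNIP, was at 47.1, 25.2, 157, 24.7 and 36.2 CPM in SEFA-6179 livers, against 44.3, 82.9, 61.4, 32.3, 46.7 and 33.7 CPM in MCT livers. Its highest library in each group, SEFA-6179 replicate 3 and MCT replicate 2, was also the library with the lowest FBP1, GYS2 and PCK2 of that group. TXNIP was the highest of its group in SEFA-6179 replicate 3, at 228 CPM. In MCT replicate 2 it was at 258 CPM, near the MCT median of 255 CPM and below the MCT maximum of 318 CPM. PCK1 was the lowest of its group in SEFA-6179 replicate 3, at 2601 CPM, but not in MCT replicate 2, at 1994 CPM. The ARRDC4 log2 fold change was 0.21 with all libraries, -0.59 once SEFA-6179 replicate 3 was left out and 0.41 once MCT replicate 2 was, and none of these passed (edgeR adjusted p = 0.910, 0.467 and 0.855). These libraries were singled out after their values were seen, and whether feeding or glucose differed between the animals was not tested.

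**Figure D5:**
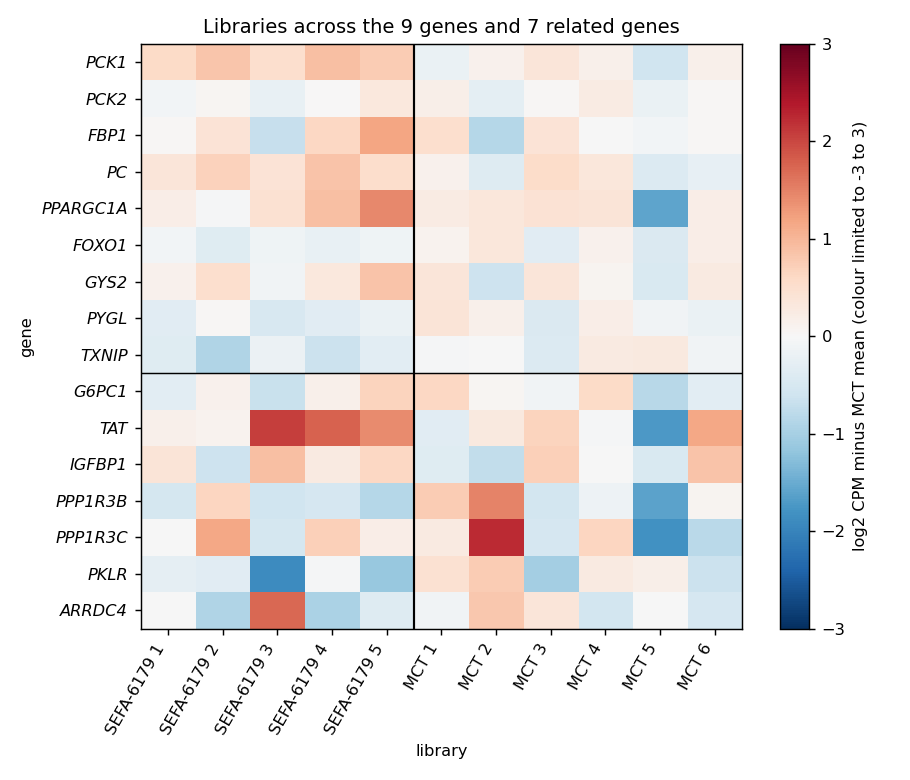
Log2 CPM minus the MCT mean (colour, limited to -3 to 3) of the 9 genes and of 7 related genes chosen after their values were seen, by library, with SEFA-6179 libraries left of MCT libraries. PCK1 is above the MCT mean in all 5 SEFA-6179 libraries, while ARRDC4 is highest in SEFA-6179 replicate 3 and MCT replicate 2.

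In liver tissue as a whole, fewer cells of a type and less RNA per cell cannot be told apart. Markers of other cell types moved with the groups in part. Of 8 tested bile duct markers 7 lay below 0 (summed level of 9 genes 42.0 to 82.0 CPM in SEFA-6179 livers, 60.6 to 146 CPM in MCT livers), and all 8 tested endothelial markers lay above 0 (428 to 853 CPM, and 362 to 728 CPM). Of 12 hepatocyte markers 8 lay above 0, with a median of 0.17. Of 9 tested stellate cell markers 7 lay below 0 (520 to 832 CPM, and 662 to 1047 CPM), and of 9 macrophage markers 8 lay above 0. At an unadjusted p below 0.05 by edgeR were 4 of the 8 bile duct, 3 of the 8 endothelial and 5 of the 9 stellate cell markers. So were 1 of the 9 macrophage and 0 of the 12 hepatocyte markers, where 10.8% of all tested genes were. The part of these cell types in the differences of the 9 genes was not tested. Kidney, gut and fat also express PCK1. Summed kidney markers reached at most 3.93 CPM in SEFA-6179 livers, against 14.3 CPM in MCT livers, and 1 of the 7 was tested, below 0. Summed fat markers ran from 11.4 to 37.7 CPM with SEFA-6179 and from 10.3 to 48.2 CPM with MCT. Of 4 tested fat markers 3 lay below 0, 1 of them at an unadjusted p below 0.05, and ADIPOQ reached at most 0.246 and 0.0562 CPM. Summed gut markers ran from 525.8 to 4179 CPM with SEFA-6179 and from 329 to 7235 CPM with MCT. Most of that sum was APOA4, an apolipoprotein gene, at 505 to 4167 CPM and 245 to 7149 CPM. Of 3 tested gut markers 2 lay below 0, 1 of them at an unadjusted p below 0.05, again against 10.8% of all tested genes. The gut marker SI was at 0 in every SEFA-6179 library and reached 0.0989 CPM in MCT livers. The part of these tissues in the PCK1 difference was not tested. Of the genes known for the periportal zone, where gluconeogenesis is strongest, 4 of 10 tested lay above 0 (median -0.13), and CDH1 passed, lower with SEFA-6179. Of 12 pericentral genes 9 lay above 0 (median 0.08), and CYP7A1 passed, higher with SEFA-6179. CDH1 and CYP7A1 were each the only gene of their list to pass by edgeR, where 0.219% of all tested genes did. CDH1 had the lowest log2 fold change of its list (-0.96) and CYP7A1 the highest of its own (2.75).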

How the data were processed

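Liver RNA of 5 SEFA-6179 and 6 MCT libraries was analysed from 1 deposited table. Per the file headers, the authors deposited a raw read count, an FPKM value and a normalized signal per gene and library, and a log2 fold change with p-values for their own comparison. In each library the deposited signal is the count times 1 constant. Per the submitters' processing notes, which give no roles, the tools included DESeq2 1.20.0, featureCounts 1.5.0-p3, HISAT2 2.0.5 and StringTie 1.3.3b. Build, annotation and strand setting: not given in the sources used here. Of all genes the table itself named 14022 genes, and 779 more were named from a reference list. Replicate libraries differed beyond sampling noise (chi-square per degree of freedom at least 41.9).

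The test on counts was that of edgeR 4.0.16, run under R 4.3.3 (filterByExpr with a minimum count of 10, which kept 13671 genes, TMM, quasi-likelihood with robust estimates, two-sided, Benjamini-Hochberg, threshold 0.05, no covariates). Log2 CPM used a prior count of 2. Ratios of FPKM were tested by exact permutation over 462 splits, and relations with 100000 permutations within groups. The test was also run on simulated data. Alternatives were DESeq2 1.42.0 (size factors; Wald test), limma 3.58.1 with library weights, other filters, pseudocounts of 0.5 and 1 for FPKM ratios, a replicate block, left-out libraries and a covariate for EIF1AY, a Y-linked gene. The 9 genes, lists and tests were chosen with earlier results of these data known. Genes named are the 9, up to 4 called genes or else the 3 with the smallest p of each wider list, 18 fixed genes and the 5 most like PCK1, of which some are left out here. Genes named outside that rule are marked or stand as cell type or zone markers. Intervals cover the spread between libraries only.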

Additional observations from a re-analysis of the deposited data

Results flagged for a closer look

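Among 88 groups of libraries of the named genes and ratios, 9 held a library set well apart within its group, where chance flags about 1 in 20, or 4.4. PPARGC1A was at 7.41 CPM in MCT replicate 5, where the other MCT libraries were at 25.6 CPM or more. ARRDC4 was at 157 CPM in SEFA-6179 replicate 3 (next highest 47.1 CPM), and PPP1R3C at 49.6 CPM in MCT replicate 2 (next highest 16.4 CPM). In SEFA-6179 replicate 2, PPP1R3B was at 38.9 CPM and PDK4 at 356 CPM, each the highest of its group. GPD1 was at 89.6 CPM in MCT replicate 2, the lowest of its group. KHK was at 77.2 CPM in MCT replicate 6, PHKB at 33.02 CPM in SEFA-6179 replicate 5 and MLX at 56.6 CPM in SEFA-6179 replicate 4, each the highest of its group.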

How the results depend on the processing

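With 30 genes called by edgeR, the count was 250 by DESeq2, 60 by limma with library weights, 8 with the replicate block, 6 with EIF1AY as a covariate and 1 without MCT replicate 5 and SEFA-6179 replicate 4. With 1 library left out it ran from 0 to 53: it was 0 without SEFA-6179 replicate 5 or MCT replicate 4, 1 without MCT replicate 1, 9 without SEFA-6179 replicate 1 or MCT replicate 2, 16 without MCT replicate 3 and as many as 53 without SEFA-6179 replicate 3. Of the 9 genes, DESeq2 called 1 and every other alternative 0. The log2 fold change of PCK1 was 0.69 by DESeq2, where it passed, and ran from 0.59 to 0.76 with 1 library left out. The GYS2 to PYGL log2 difference ran from 0.46 to 0.77 with 1 library left out, passing without MCT replicate 3 or 6. The PCK1 to PCK2 log2 difference was 0.72 with the replicate block (exact sign-flip test adjusted p = 0.125, smallest possible unadjusted p 0.0625), so that block test could not pass. Deviations of same-numbered libraries from their group means had r from -0.15 to 0.20. The labels do not say that equal numbers pair animals, and whether such libraries shared a litter or batch was not tested. Small fold changes turned sign, none of them called. PCK2 was -0.066 by limma and -0.014 without the 2 named libraries, and -0.066 to 0.071 with 1 library left out. By limma PPP1R3C was 0.032 and ARRDC4 -0.011. With the block PPP1R3C was 0.10, PDK4 0.056, ARRDC4 -0.20 and GCKR 0.019. With the EIF1AY covariate G6PC1 was 0.056, PDK4 0.032, ARRDC4 -0.058 and GCKR 0.017. PDK4 was 0.00099 at a mean count of at least 50, and without the 2 named libraries GBE1 was -0.033, PPP1R3C -0.46 and SLC2A2 -0.28. With 1 library left out G6PC1 ran from -0.22 to 0.13, PPP1R3C from -0.43 to 0.64, GBE1 from 0.050 to 0.25, GCGR from -0.023 to 0.28, PDK4 from -0.12 to 0.10, ARRDC4 from -0.59 to 0.41, SLC2A2 from -0.22 to 0.010 and GCKR from -0.13 to 0.078. The causes were not tested. Other directions among the named genes did not turn. Low counts limit G6PC3 and LDHB.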
